A study of Mus musculus with 4 samples.

Results

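The mRNA levels of 10 genes that build, load, release or position cohesin were examined in mouse embryonic fibroblasts (MEFs) with and without *Phf2*: the ring subunits *Smc1a*, *Smc3* and *Rad21* (the gene of Scc1), the ring-bound subunits *Stag1* and *Stag2*, the loader *Nipbl*, the releasing and regulatory factors *Wapal* (the gene of Wapl), *Pds5a* and *Pds5b*, and the boundary protein gene *Ctcf*. They were taken by symbol from the 24391 genes of the count table, and all 10 were found. All 10 also passed the filter on low counts that left 13668 genes for testing, with at least 514 reads per library each. The data were RNA-seq counts from 2 WT and 2 *Phf2* KO libraries of quiescent primary MEFs, derived from E13.5 embryos. By genotype all 4 libraries were *Phf2* flox/flox, ERCre/+, so the WT cells also carried the floxed alleles and CreERT2, a Cre recombinase inducible by tamoxifen and driven from *Rosa26*. The *Phf2* KO libraries alone were labelled Tamoxifen, and the library descriptions carried the tag noTamox for WT and Tamox for *Phf2* KO. The treatment text, worded alike for all libraries, describes 7 days of arrest in Opti-MEM with charcoal-treated serum at 2% and the active tamoxifen metabolite 4-OHT at 0.5 µM. Loss of Phf2, activity of the recombinase and exposure to 4-OHT cannot be told apart in this design. The study's methods call the replicates biological, and the labels do not say whether they came from separate cultures.

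Cohesin is a ring of the ATPases Smc1a and Smc3, closed by the kleisin Rad21, which in turn holds either Stag1 or Stag2. Nipbl, with its partner Mau2, stimulates the ATPase and is needed for loading and loop extrusion, whereas Wapl with Pds5a or Pds5b releases cohesin from DNA. Ctcf bound to its DNA motif halts loop-extruding cohesin at boundaries of topologically associating domains. In resting cells cohesin still folds chromatin into loops, and its role in holding sister chromatids together is not needed. Phf2 is a reader of histone H3 trimethylated at lysine 4, and the comparison asks whether its loss altered the transcript supply of the cohesin machinery.

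The libraries held between 21094743 and 26094268 counts, and 3 counts were worth between 0.116 and 0.145 CPM, the unit used below for counts scaled to the library total after TMM normalization. *Phf2* itself had 3244 and 3680 reads in the WT libraries (here and below replicate 1 first) against 1454 and 2158 in the *Phf2* KO libraries, or 138 ± 5.11 and 80.0 ± 13.9 CPM (mean ± SD, n = 2 per group here and below). Its log2 fold change was -0.79 (SE 0.141), with an adjusted p of 0.999 by edgeR's quasi-likelihood test and of 0.00321 by DESeq2, so *Phf2* was called lower by DESeq2 but not by edgeR. Gene-level counts do not separate the floxed exons from the rest of the gene. All 10 fibroblast marker genes examined were detected in every library, with a summed level between 69561 and 82088 CPM. Markers of macrophages summed to 3626 and 787 CPM in WT and 4133 and 1245 CPM in *Phf2* KO replicates 1 and 2, with all 12 detected in every library. Among the fibroblast markers 7 of 10 had a fold change below 0, from -0.75 for *Lum* to 0.10 for *Pdgfrb*. Among the macrophage markers 3 of 12 did, from -0.26 for *Adgre1* to 0.49 for *Lyz2*, against 48.8% of all tested genes. EdgeR called none in either list, against 0.00732% of all tested genes, and DESeq2 called 0, against 0.399%. At an unadjusted edgeR p under 0.05 there were 1 fibroblast and 0 macrophage markers, against 4.21% of all tested genes. Within both replicate numbers 7 of the 12 macrophage markers were higher in *Phf2* KO, against 4450 of all 13668 tested genes. Their median log2 ratios were 0.08 in replicates 1 and 0.56 in replicates 2, against 0.01 and 0.00 over all tested genes. *Xist*, transcribed from the inactive X chromosome, had 10042 reads in WT and 8336 in *Phf2* KO replicate 1 but 3 and 12 in replicate 2. *Ddx3y*, a Y-linked gene, had 6 and 10 reads in replicate 1 of WT and *Phf2* KO but 1271 and 1295 in replicate 2. Replicates 1 were thus female and replicates 2 male in both groups.

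Per kilobase of exon, *Smc1a* and *Rad21* led the order in WT MEFs. *Smc1a* stood at 24.4 ± 1.10 CPM per kilobase, *Rad21* at 19.2 ± 2.36, *Ctcf* at 11.9 ± 0.276 and *Smc3* at 11.4 ± 1.14. *Nipbl* (9.38 ± 0.213) and *Pds5a* (9.27 ± 0.680) followed, then *Wapal* (5.36 ± 0.608) and *Stag2* (4.77 ± 0.255). *Stag1* (3.29 ± 0.455) and *Pds5b* (3.19 ± 0.0469) were lowest on this scale. Neighbours in this order whose WT libraries overlapped were *Ctcf* and *Smc3*, *Nipbl* and *Pds5a*, *Wapal* and *Stag2*, and *Stag1* and *Pds5b*. All other neighbours were separated in each of the 4 libraries. Divided by the longest transcript instead of all exons, *Stag1* stood at 5.46 and *Pds5b* at 4.05 CPM per kilobase, while *Stag2* (6.39) came above *Wapal* (5.59). *Smc1a* was thus above *Rad21*, and *Rad21* above *Smc3*, in every library, although their proteins occur once each in the ring.

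**Figure D1:**
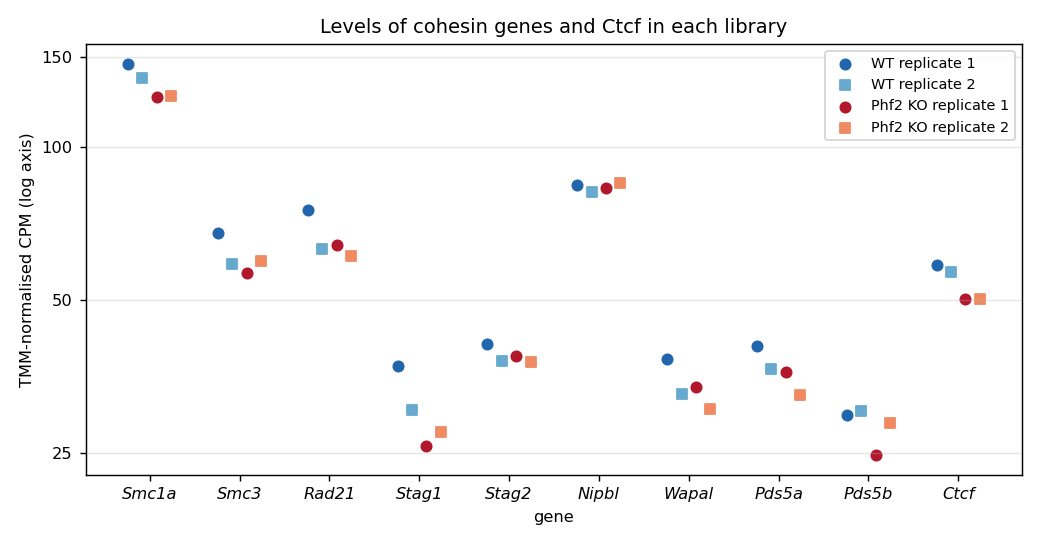
Level of each gene in every library, in CPM after TMM normalization (vertical axis, log scale), blue for WT, red or orange for *Phf2* KO, circles for replicates 1 and squares for replicates 2. *Smc1a* is highest in each library, between 125 and 145 CPM, and *Stag1* spans 25.9 to 37.1 CPM with both WT points above both *Phf2* KO points.

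The promoters of *Stag1*, *Ctcf* and *Smc1a* are shown because these genes had the lowest unadjusted p-values among the 10. Each sequence covers the 250 bases before the gene start in RefSeq on GRCm38.p6, on the forward strand. Promoters of 7 of the 10 genes were matched by symbol, and those of *Rad21*, *Stag2* and *Nipbl* were not used here. Capitals mark matches, on either strand, to the Sp1 box GGGCGG, the CCAAT box CCAAT or the Yy1 core ATGGCGG.
Stag1 (chr9:100643198-100643447): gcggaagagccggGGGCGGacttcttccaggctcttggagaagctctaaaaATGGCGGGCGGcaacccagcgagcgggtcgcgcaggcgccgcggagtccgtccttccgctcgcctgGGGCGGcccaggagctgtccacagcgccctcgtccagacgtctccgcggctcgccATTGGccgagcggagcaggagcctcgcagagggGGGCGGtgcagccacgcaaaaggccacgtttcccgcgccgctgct
Ctcf (chr8:105636288-105636537): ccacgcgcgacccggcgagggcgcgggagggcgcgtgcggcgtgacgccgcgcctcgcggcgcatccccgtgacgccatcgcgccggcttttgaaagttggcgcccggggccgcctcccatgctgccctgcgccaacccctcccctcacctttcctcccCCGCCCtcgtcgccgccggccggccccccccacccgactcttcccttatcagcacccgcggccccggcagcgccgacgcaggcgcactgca
Smc1a (chrX:152016178-152016427): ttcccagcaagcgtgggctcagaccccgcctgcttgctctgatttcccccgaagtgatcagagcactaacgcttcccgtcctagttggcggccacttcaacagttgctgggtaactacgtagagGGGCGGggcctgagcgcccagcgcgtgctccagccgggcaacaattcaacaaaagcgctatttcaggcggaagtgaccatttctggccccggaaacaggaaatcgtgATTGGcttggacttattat
The *Stag1* window held 4 GGGCGG matches, 1 of them overlapping its ATGGCGG match, and 1 CCAAT match. The *Ctcf* window held 1 GGGCGG match on the reverse strand and no CCAAT match. The *Smc1a* window held 1 of each. All 7 member windows contained GGGCGG, against 32.7% of 32851 RefSeq promoter windows of this length, and 4 contained CCAAT, against 33.8%. Only *Stag1* contained ATGGCGG, against 2.21% of all windows. None of the 7 contained TATAAA (12.4% of all windows) or the ETS site CCGGAAG (6.91%). GC content was 71.2% for *Stag1*, 77.6% for *Ctcf* and 56.8% for *Smc1a*, against a median of 52.4% over all windows. The ratio of observed to expected CpG was 0.980, 1.13 and 0.794, against a median of 0.374. These matches describe letters in the windows and were not tested for binding.

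Among the ring genes, *Smc1a*, *Smc3* and *Rad21* averaged 88.8%, 91.8% and 90.6% of the WT level in *Phf2* KO MEFs, and none of these differences passed the test. *Smc1a*, the gene of an ATPase subunit on chromosome X (148450971 to 148497237 on mm9, forward strand), had 3506 and 3541 reads in the WT libraries against 2587 and 3014 in the *Phf2* KO libraries. This was 141 ± 6.36 against 125 ± 0.369 CPM, with both *Phf2* KO libraries below both WT libraries. The log2 fold change was -0.17 (SE 0.080, 95% interval -0.38 to 0.04, edgeR unadjusted p = 0.090). *Smc3*, the gene of the partner ATPase on chromosome 19 (53674886 to 53720323), had 1632 and 1525 reads in the WT libraries against 1172 and 1431 in the *Phf2* KO libraries, or 63.2 ± 6.32 and 58.0 ± 2.10 CPM. Its groups overlapped, and the log2 fold change was -0.12 (SE 0.105, interval -0.40 to 0.16). *Rad21*, the kleisin gene on chromosome 15 (51794151 to 51823306, reverse strand), had 1811 and 1637 reads in the WT libraries against 1331 and 1467 in the *Phf2* KO libraries, or 69.1 ± 8.52 and 62.6 ± 2.27 CPM. WT replicate 1 was the highest library for *Smc3* and *Rad21*, WT replicate 2 lay close to the *Phf2* KO libraries, and the *Rad21* log2 fold change was -0.14 (SE 0.115, interval -0.45 to 0.16). Without WT replicate 1, the log2 fold change of *Rad21* was 0.00144.

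*Stag1* had the lowest fold change of the 10 genes, whereas its paralog *Stag2* was close to the WT level. *Stag1* (chromosome 9, 100498217 to 100858964, forward strand) had 894 and 791 reads in the WT libraries against 536 and 662 in the *Phf2* KO libraries. Levels were 33.8 ± 4.67 and 26.7 ± 1.18 CPM, the *Phf2* KO mean being 79.0% of the WT mean. The 2 *Phf2* KO libraries lay below both WT libraries, while the WT libraries lay further apart than the *Phf2* KO libraries did. The log2 fold change was -0.34 (SE 0.134, 95% interval -0.69 to 0.02, edgeR unadjusted p = 0.057), and it did not pass the test across all genes. The interval runs from 61.8% to 101% of the WT level. *Stag2* (chromosome X, 39502494 to 39630362) had 987 and 985 reads in the WT libraries against 805 and 907 in the *Phf2* KO libraries, or 39.5 ± 2.11 and 38.3 ± 0.793 CPM. Its log2 fold change was -0.04 (SE 0.095, interval -0.30 to 0.21), and its groups overlapped.

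*Stag1* reads made up 47.5% and 44.5% of the *Stag1* and *Stag2* reads in the WT libraries. The exact Clopper-Pearson 95% intervals, which cover counting error only, were 45.2% to 49.8% and 42.2% to 46.9%. In *Phf2* KO the share was 40.0% (37.3% to 42.6%) and 42.2% (39.7% to 44.7%). Both *Phf2* KO libraries thus had a lower *Stag1* share than both WT libraries, but the intervals of the second replicates overlapped. Corrected for exon length, the share was 40.7% ± 2.05 in WT and 36.0% ± 1.50 in *Phf2* KO. With the longest transcript as length it was 46.0% and 41.0%. An exact permutation test gave p = 0.333, the smallest value that 2 against 2 libraries allow, two-sided. For *Pds5a* among *Pds5a* and *Pds5b*, the same length-corrected share was 74.3% ± 1.68 in WT and 74.3% ± 3.39 in *Phf2* KO (exact permutation p = 1), and the libraries of the 2 groups were interleaved. The *Pds5a* share depended on the length used. In WT it was 69.6% with the longest transcript as length and 56.2% by reads alone.

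**Figure D2:**
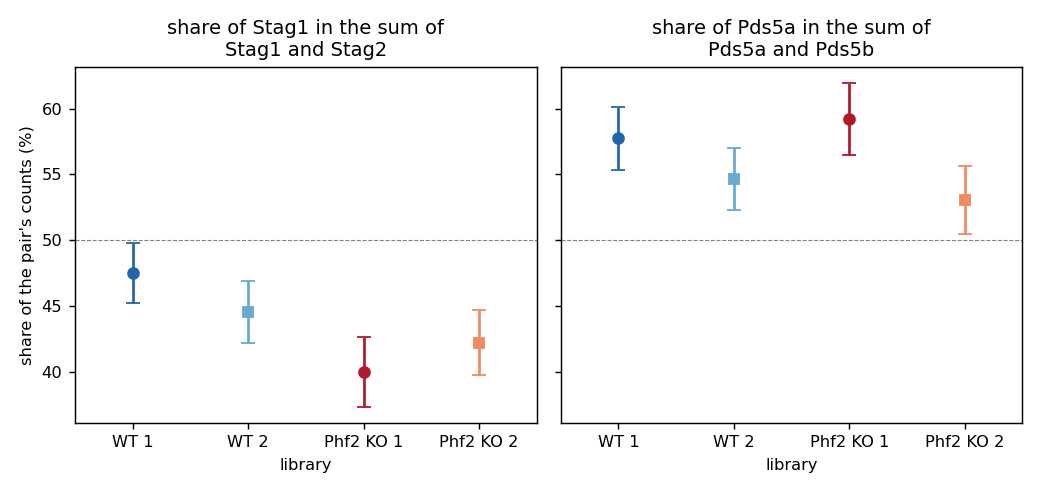
Share of *Stag1* in *Stag1* and *Stag2* reads and of *Pds5a* in *Pds5a* and *Pds5b* reads in each library, in percent, with exact 95% counting intervals as bars and a dashed line at equal shares. The *Stag1* share is between 44.5% and 47.5% in WT and between 40.0% and 42.2% in *Phf2* KO, while the *Pds5a* shares of the groups overlap.

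The loader gene *Nipbl* was the one gene of the 10 with a fold change above 0. *Nipbl* (chromosome 15, 8241225 to 8394463, reverse strand) had 2024 and 2110 reads in the WT libraries against 1718 and 2036 in the *Phf2* KO libraries, or 82.6 ± 1.88 and 83.8 ± 1.26 CPM. The libraries of both groups were interleaved. The log2 fold change was 0.02 (SE 0.074, 95% interval -0.18 to 0.22), a span of 88.5% to 116% of the WT level. *Mau2*, whose protein pairs with Nipbl, had 2061 and 2834 reads in the WT libraries against 2155 and 2977 in the *Phf2* KO libraries and had a log2 fold change of 0.23, also not past the test.

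The releasing factors *Wapal*, *Pds5a* and *Pds5b* averaged 90.5%, 88.8% and 89.2% of the WT level in *Phf2* KO, and again none passed the test. *Wapal* (chromosome 14, 35487114 to 35561169) had 924 and 847 reads in the WT libraries against 698 and 734 in the *Phf2* KO libraries, or 35.5 ± 4.03 and 32.1 ± 2.23 CPM. Its log2 fold change was -0.14 (SE 0.127, interval -0.48 to 0.19), and WT replicate 2 lay between the *Phf2* KO libraries. *Pds5a* (chromosome 5, 66006499 to 66089095, reverse strand), which binds Rad21 beside Wapl, had 978 and 949 reads in the WT libraries against 747 and 781 in the *Phf2* KO libraries. It stood at 38.6 ± 2.83 and 34.3 ± 2.52 CPM, and the log2 fold change was -0.17 (SE 0.113, interval -0.47 to 0.13). Its paralog *Pds5b*, also on chromosome 5 (151476314 to 151613265), had 716 and 787 reads in the WT libraries against 514 and 691 in the *Phf2* KO libraries, or 30.0 ± 0.441 and 26.8 ± 2.78 CPM. For both *Pds5* genes the groups did not overlap, although the lower WT library and the higher *Phf2* KO library were close. The log2 fold change of *Pds5b* was -0.16 (SE 0.116, interval -0.47 to 0.14).

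*Ctcf* (chromosome 8, 108160468 to 108206822) had 1413 and 1472 reads in the WT libraries against 1039 and 1205 in the *Phf2* KO libraries. Levels were 57.7 ± 1.34 and 50.1 ± 0.0135 CPM, so that the replicates of each group lay closer together than the groups did. Counting error on 1039 and 1205 reads is larger than this *Phf2* KO SD, as it is for *Smc1a*. An SD that small from 2 libraries therefore does not measure reproducibility. The *Phf2* KO mean was 86.9% of the WT mean. The log2 fold change was -0.20 (SE 0.082, 95% interval -0.42 to 0.01, edgeR unadjusted p = 0.061), with an adjusted p of 0.999. *Ctcfl*, the germline paralog of *Ctcf*, had at most 2 reads in any library.

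**Figure D3:**
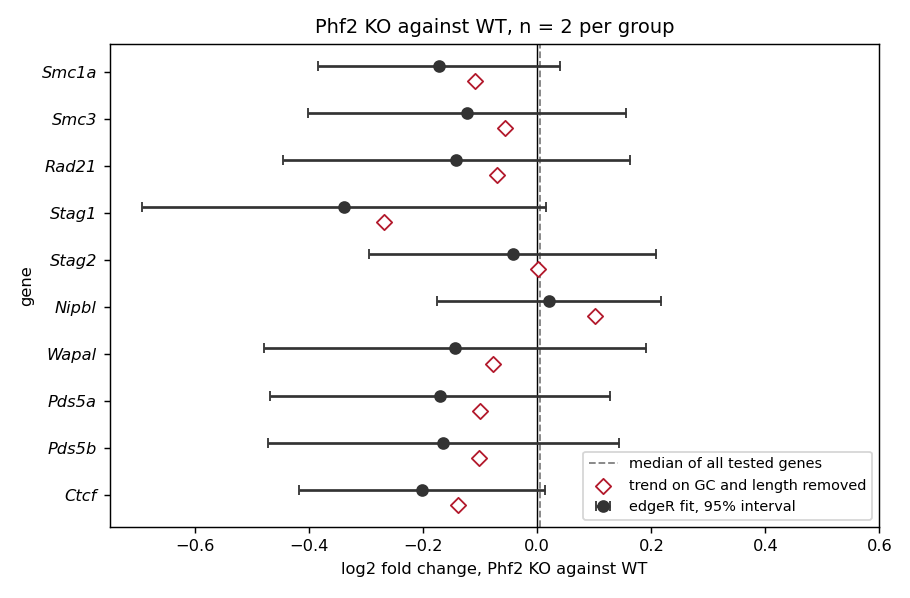
Log2 fold change of each gene between *Phf2* KO and WT from edgeR (horizontal axis, filled points) with its 95% interval as a bar, the fold change with the GC and length trend removed as open diamonds, and the median of all tested genes as a dashed line. Each interval includes 0, the filled points lie between -0.34 for *Stag1* and 0.02 for *Nipbl*, and 9 of 10 lie below 0.

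Across the 10 genes, none was called at an adjusted p under 0.1 by edgeR's quasi-likelihood test, where 1 gene of 13668, or 0.00732%, was called. This test sets differences against the spread between libraries of a group, which differed in sex and in summed macrophage markers. It did not call the deleted gene *Phf2* either. None of the 10 had an unadjusted p under 0.05, against 4.21% of all tested genes. DESeq2, which called 0.399% of all genes, and limma-voom, which called 0.0%, also called none of them. The adjusted p was 0.999 for each gene by edgeR. By direction alone, 9 of 10 log2 fold changes were below 0, against 48.8% of all genes. The median was -0.15 over the 10 genes and 0.01 over all genes tested. Both *Phf2* KO libraries were below both WT libraries for *Smc1a*, *Stag1*, *Pds5a*, *Pds5b* and *Ctcf*, 5 of 10, against 18.0% of all genes, and the opposite held for none, against 15.5%. The summed level of the 10 genes was 618 and 564 CPM in the WT libraries and 538 CPM in each *Phf2* KO library. WT replicate 1 was thus the library with the highest sum. Leaving it out gave a median of -0.05 with 7 of 10 below 0 (47.5% of all genes), and leaving out WT replicate 2 gave -0.24 with 10 of 10 below 0 (52.0% of all genes).

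Within replicates 1 the median log2 ratio of *Phf2* KO to WT was -0.22 over the 10 genes, and within replicates 2 it was -0.09. Over all genes these medians were 0.01 and 0.00. By sign alone, 8 of 10 genes were lower in *Phf2* KO within both numbers, against 30.2% of all genes. The exceptions were *Smc3* and *Nipbl*. In replicates 2, intervals for counting error alone were wholly negative for *Smc1a* (-0.19 to -0.05), *Pds5a* (-0.31 to -0.03) and *Ctcf* (-0.29 to -0.07). They spanned both signs for *Stag1* (-0.30 to 0.002), *Pds5b*, *Wapal*, *Rad21* and *Stag2*. In replicates 1, *Stag2* (-0.21 to 0.06) was the only one of these 8 genes whose interval spanned both signs. *Stag1* had a ratio of -0.52 in replicates 1 and -0.15 in replicates 2. *Pds5a* (-0.17 and -0.17) and *Ctcf* (-0.23 and -0.18) had like ratios in both numbers. *Smc1a* had ratios of -0.22 and -0.12, *Pds5b* of -0.26 and -0.08, *Rad21* of -0.23 and -0.05 and *Wapal* of -0.19 and -0.10. For *Smc3* the ratio was -0.26 in replicates 1 and 0.02 in replicates 2, for *Stag2* -0.08 and -0.01, and for *Nipbl* -0.02 and 0.06. Apart from *Pds5a*, every gene thus had the lower ratio in replicates 1.

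**Figure D4:**
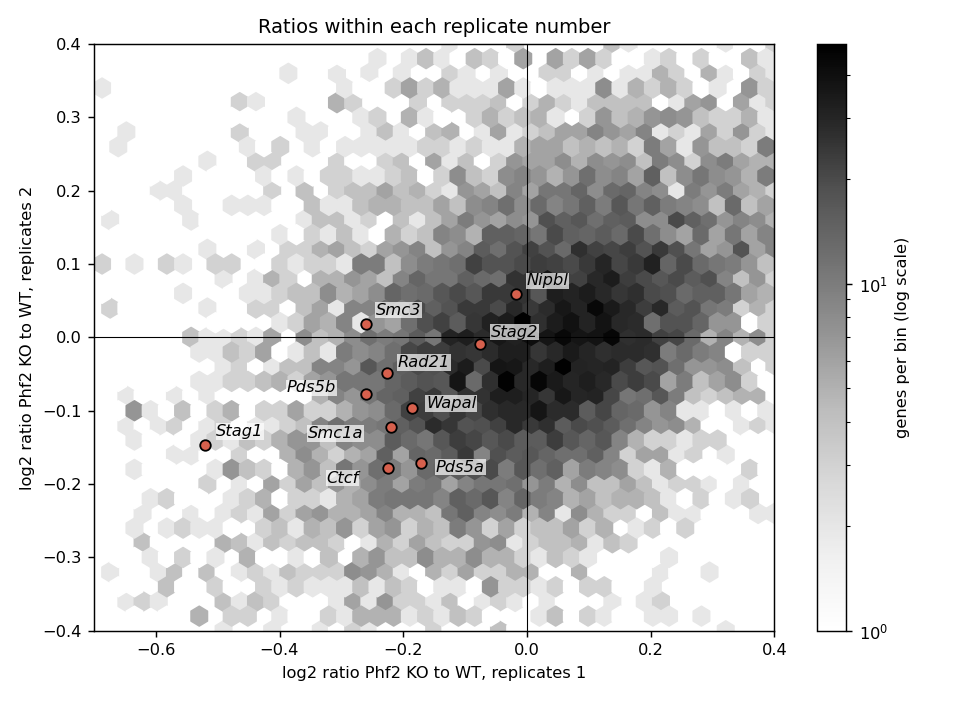
Log2 ratio of *Phf2* KO to WT within replicates 1 (horizontal axis) and within replicates 2 (vertical axis) for the 10 genes (points), over all tested genes that lie in this window (grey, genes per bin, log scale). In the lower left lie 8 points, with *Stag1* at -0.52 and -0.15, and *Smc3* and *Nipbl* lie above 0 in replicates 2.

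Several measured properties were set beside these ratios. By GC content of the longest coding transcript, 8 of the 10 genes lay in the lowest quartile of genes (33.1% to 45.8% GC), and *Ctcf* and *Smc1a* in the next. The lowest quartile had a median log2 ratio of -0.11 within replicates 1 and 0.02 within replicates 2, and the highest quartile 0.13 and -0.01. By length, 7 of the 10 lay in the longest quartile. A fold change below 0 was found for 60.4% of genes in the lowest GC quartile and 57.6% in the next. In the longest quartile the share was 57.3%. With a trend on GC content and length removed, a step chosen after the data were seen, the median over the 10 genes was -0.09 with 8 below 0, against 47.8% of the genes in that fit. The log2 fold change was then -0.27 for *Stag1*, -0.14 for *Ctcf* and 0.10 for *Nipbl*. Proliferation genes, which are high in cycling cells, summed to 359 and 225 CPM in WT and 298 and 237 CPM in *Phf2* KO replicates 1 and 2, so WT replicate 1 was highest here too. Of these 16 genes 9 had a fold change below 0, against 48.8% of all genes. The range was -0.38 for *Mcm6* to 0.34 for *Birc5*. EdgeR called 0 of them and DESeq2 0, against 0.00732% and 0.399% of all genes. At an unadjusted edgeR p under 0.05 there were 0, against 4.21% of all genes. Their median log2 ratio was -0.30 within replicates 1 and 0.23 within replicates 2. The part of proliferation and of macrophage content in the ratios of the 10 genes was not tested. In bulk RNA, fewer cells of a type and less RNA per cell cannot be told apart.

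**Figure D5:**
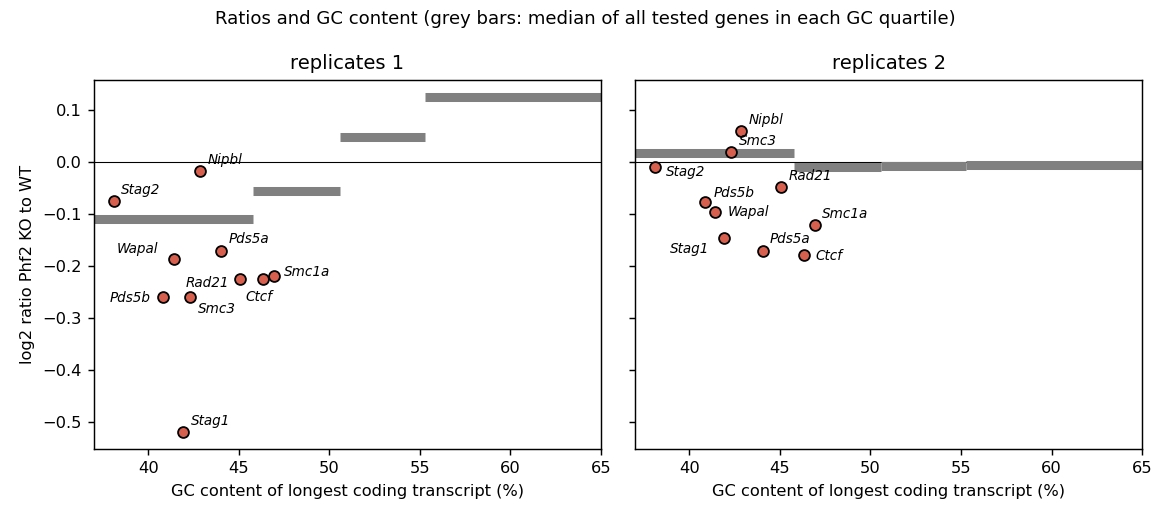
Log2 ratio of *Phf2* KO to WT within replicates 1 (left) and replicates 2 (right) against the GC content of the longest coding transcript in percent for the 10 genes (points). Grey bars give the median of all tested genes in each GC quartile, the outer bars being drawn to the edge of the axis: they climb from -0.11 to 0.13 in replicates 1 and stay between -0.01 and 0.02 in replicates 2.

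*Smc1a* and *Stag2* are X-linked, and each group held a female and a male library. The log2 ratio of replicate 1 to replicate 2 was 0.09 in WT and -0.01 in *Phf2* KO for *Smc1a*, and 0.11 and 0.04 for *Stag2*. Over 353 X-linked genes the medians were 0.04 and -0.02. For comparison, genes that escape X inactivation in mice had higher ratios, namely 0.59 and 0.68 for *Kdm5c*, 0.71 and 0.65 for *Kdm6a*, 0.41 and 0.92 for *Eif2s3x* and 0.73 and 0.48 for *Ddx3x*. Both cohesin genes were nearer to the X-linked median than to these genes.

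Beside the 10 genes, 35 genes of related functions were examined, of which 30 were tested. None was called by edgeR or DESeq2, which called 0.00732% and 0.399% of all genes. An unadjusted edgeR p under 0.05 was found for 2 of the 30, *Vezf1* and *Smchd1*, against 4.21% of all genes. Of the 30, 17 had a fold change below 0 and 13 above, with a median of -0.00235, against 48.8% of all genes below 0. Among the genes that acetylate, deacetylate or stabilize cohesin on DNA, together with *Mau2*, the log2 fold changes ran from -0.29 for the acetyltransferase *Esco1* to 0.23 for *Mau2*. Among the shugoshins, separase and securin, which guard or cleave cohesin in mitosis, they ran from -0.05 for securin (*Pttg1*) to 0.17 for separase (*Espl1*). Among boundary factors and zinc finger proteins listed with *Ctcf*, the range was -0.33 for *Vezf1* to 0.05 for *Maz*. *Vezf1* had 1441 and 1428 reads in the WT libraries against 955 and 1084 in the *Phf2* KO libraries. Condensin genes, whose products fold mitotic chromosomes, ranged from -0.16 for *Ncapg* to 0.13 for *Smc4*. In the list of the SMC5/6 complex, a relative of cohesin in DNA repair, and the X-inactivation factor *Smchd1*, the range was -0.33 for *Smchd1* to 0.15 for *Nsmce1*. *Smchd1* had 615 and 576 reads in the WT libraries against 399 and 450 in the *Phf2* KO libraries.

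Of the meiotic cohesin subunits, *Stag3* alone had enough reads to be tested, with 78 and 123 counts in WT and 53 and 97 in *Phf2* KO and a log2 fold change of -0.27. *Smc1b* had at most 2 reads in any library, and *Rad21l* had none, which allows up to 3 counts per library, or 0.116 to 0.145 CPM. *Rec8* had at most 4 reads and the acetyltransferase gene *Esco2*, which acts in S phase, at most 11. These last 2 are named after their values were seen. Among the Smc1 genes and the kleisin genes of cohesin (*Rad21*, *Rad21l* and *Rec8*), nearly all reads thus came from *Smc1a* and *Rad21* in both groups.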

How the data were processed

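Libraries of 50 nt single reads were analysed from 2 WT and 2 *Phf2* KO MEF samples. Per the submitters' processing notes and the study's methods, reads went through Trim Galore, a Bowtie2 step against ribosomal RNA and STAR (mm9, reverse stranded), and the authors deposited whole-number read counts per gene symbol from featureCounts, without normalization. Tool versions and the annotation release are not given in the sources used here. A second table of the authors, holding their DESeq2 fold changes and p-values, was not used.

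Counts were tested in R 4.3.3 with edgeR 4.0.16 (filterByExpr, TMM, glmQLFit and glmQLFTest, genotype as the term), p-values being adjusted over 13668 genes (Benjamini-Hochberg) and called under 0.1. The script was tested on simulated data. DESeq2 1.42.0 and limma 3.58.1 (voom), an edgeR likelihood ratio test, RLE size factors, library size alone, other filters, a threshold of 0.05, a replicate block and leaving out each library were alternatives. A trend on GC content and length (12248 genes with both) was removed as an alternative chosen after seeing the data. Chi-square values per degree of freedom were 51.0 between the WT and 35.1 between the *Phf2* KO replicates, so no library was a copy. Between WT and *Phf2* KO libraries of the same number they were lower, 18.8 for replicates 1 and 14.6 for replicates 2. P-values of the main test measure the spread between the libraries of a group, which also differed in sex and in summed macrophage markers. Positions and exon lengths come from GENCODE on mm9, and promoters from RefSeq on GRCm38.p6, which was not mixed with mm9. Counting was stranded, so antisense neighbours are separable. Python 3.11.15, pandas 2.3.3, SciPy 1.17.1 and Matplotlib 3.10.9 were also used.

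The 10 genes and the wider lists were chosen with earlier results of these data known. All 10 were named. From each wider list, any called gene, any gene under 3 counts in every library and those with the highest and lowest fold change were named, with *Phf2*, sex and X-escape genes as checks.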

Additional observations from a re-analysis of the deposited data

How the results depend on the processing

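With 2 libraries per group, the 95% intervals were widest for *Stag1* and *Wapal* (61.8% to 101% and 71.7% to 114% of the WT level) and narrower for *Smc1a* (76.6% to 103%) and *Ctcf* (74.9% to 101%), and each included the WT level. Over all genes, edgeR called 1, DESeq2 64 (10 higher and 54 lower in *Phf2* KO), the edgeR likelihood ratio test 41, limma-voom 0, the fit with the GC and length trend removed 0, the threshold of 0.05 gave 0, and leaving out 1 library gave 0 to 0. Same-numbered libraries deviated together (r = 0.774 across genes between the WT and the *Phf2* KO difference of replicates 1 and 2), but the labels state no pairing and there are 2 pairs. With a replicate block, which leaves 1 residual degree of freedom, edgeR called 1500 of all genes (11.0%), 1 of the 10 genes (*Stag1*, log2 fold change -0.33, adjusted p = 0.0143) and 3 of the wider lists (*Mau2* higher, *Vezf1* and *Smchd1* lower). At an unadjusted p under 0.05 the block gave 3 of the 10 genes, *Stag1*, *Ctcf* and *Smc1a*, against 2673 of all 13668 tested genes. The block also gave calls for *Phf2* (lower, adjusted p = 7.67e-19), 7 of 12 macrophage markers (all higher), 1 of 10 fibroblast markers (*Lum*, lower) and 2 of 16 proliferation genes (both lower). The SE in this fit was nearly the same for *Smc1a* (0.0827), *Nipbl* (0.0831) and *Phf2* (0.0834). Its p-values thus rested mainly on spread pooled over genes. They do not measure how well the 2 pairs of a gene agreed, as for *Stag1* with ratios of -0.52 and -0.15. Directions turned for *Rad21*, which ran from -0.28 to 0.00144 over the fits leaving out 1 library, for *Stag2* (-0.11 to 0.024), and for *Nipbl* (-0.019 to 0.056), and *Stag2* was at 0.00135 with the trend removed. The other 7 genes stayed below 0 in each alternative run, and none of the 10 was called in an alternative without the block. The cause of these differences was not tested.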
